A study of Mus musculus with 12 samples.

Results

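The type 17 program is the set of genes around the cytokine IL-17A, and it was described here in regulatory T cells (Tregs) that lacked Il10, Ebi3 or both. Its members were 9 genes: the cytokines Il17a and Il17f, the receptor genes Il17ra, Il17re and Il23r, the chemokine receptor Ccr6, the nuclear receptor Rora, and the membrane proteins Tmem176a and Tmem176b. Of these, 7 had at least 1 probe set annotated to that gene alone, and together they had 20 of the 45101 probe sets on the array. Il17f and Il23r had no such probe set and were not analysed here. The members were chosen as genes linked to the type 17 program, and Il17re and Tmem176a were selected on their difference by the Il10 genotype in these same arrays. Differences by the Il10 genotype are therefore given for the members as a description: how many passed the threshold is printed beside the share of all probe sets, and nothing is read from it. By contrast, differences by the Ebi3 genotype and between batches were tested.

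The 12 Affymetrix arrays measured RNA of freshly isolated, untreated mouse T cells sorted by flow cytometry and labelled as Tregs. The mice were wild type (WT), lacked Ebi3 (Ebi3_KO), lacked Il10 (Il10_KO) or lacked both genes (DKO), with 3 arrays of each. Each of 3 labelled batches held 1 array of every genotype. The strain, age and targeted alleles, and whether replicates are separate animals, are not given in the sources used here, so p-values measure only the spread between these arrays, which may be technical.

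The nuclear receptor RORα, the product of Rora, takes part in directing type 17 T cells. They make IL-17A and IL-17F, respond to IL-23 through Il23r and migrate along CCL20 through Ccr6. IL-17A acts on other cells through a receptor that contains the Il17ra chain, whereas the Il17re chain pairs with Il17ra to bind IL-17C. Tmem176a and Tmem176b encode related channel-like membrane proteins of immune cells and lie side by side in the genome.

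The bases before the start of Il17a, before the start of Il17re and between the Tmem176 genes are shown because, among the members, these 3 loci had the largest average log2 differences by the Il10 genotype. All are reference sequence from RefSeq on GRCm38.p6, given on the plus strand, in lower case, with the RORα half-site AGGTCA on either strand in capitals. The first covers 250 bases upstream of Il17a (chr1:20730655-20730904), the next covers the 178 bases before the first annotated base of Il17re (chr6:113458521-113458698), and the last covers the 108 bases between the divergent Tmem176b and Tmem176a starts (chr6:48841375-48841482).
Il17a: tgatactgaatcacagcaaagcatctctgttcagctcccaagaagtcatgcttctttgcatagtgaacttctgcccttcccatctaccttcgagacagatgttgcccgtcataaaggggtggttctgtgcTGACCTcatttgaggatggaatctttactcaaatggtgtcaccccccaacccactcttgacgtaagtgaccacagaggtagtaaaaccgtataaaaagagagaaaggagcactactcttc
Il17re: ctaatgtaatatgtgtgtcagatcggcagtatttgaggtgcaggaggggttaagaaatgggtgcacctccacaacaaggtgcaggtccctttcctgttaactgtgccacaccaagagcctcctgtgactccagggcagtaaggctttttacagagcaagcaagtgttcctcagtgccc
Tmem176a and Tmem176b: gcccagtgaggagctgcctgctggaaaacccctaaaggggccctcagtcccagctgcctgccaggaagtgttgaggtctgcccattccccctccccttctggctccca
The Il17a window held 1 match, on the minus strand. The Il17re and Tmem176 windows held 0. A match was present in 14.02% of 32851 promoter windows of 250 bases, and in 10.1% and 6.34% of them when each window was cut to the part that the 178 and the 108 bases span. Of the 8 members with a window, 4 had a match within 250 bases of a start: Il17a, Il17f, Il23r and, in 1 of its 2 windows, Ccr6. Rora, Il17re, Tmem176a and Tmem176b had none. A match is a description of letters and was not related to binding.

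Ebi3, a chain of IL-27 and IL-35, and Il10 were read first as a check of the labels. Ebi3 signal was 3.0 to 72.5 on the 6 arrays labelled as lacking Ebi3 and 1062.5 to 2057.3 on the other 6. Il10 signal was 1016.7 to 2639.6 on the 6 arrays labelled as lacking Il10 and 184.5 to 2939.8 on the others, so the groups overlapped. Whether the Il10 probe set lies in the deleted part is not given in the sources used here, so it does not check those labels, and the Il10 genotype is used as labelled throughout. Foxp3, the factor that defines Tregs, read 4945.3 to 7955.0 over the 12 arrays. Signals are MAS5 units, each array being scaled to the same trimmed mean. Of the 20 member probe sets, 18 were tested (3 or more arrays with a signal no lower than that array's 40th percentile), among 31235 tested in all. The 2 left out, Rora 1424035_at and 1458145_at, stayed at or below 46.2 and 25.1.

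Il17re, the receptor chain for IL-17C, read higher on the arrays without Il10 within every batch. With probe set 1426566_s_at, WT signals in batches 1, 2 and 3 were 187.6, 310.0 and 140.9. Ebi3_KO signals were 180.5, 334.7 and 142.5. Il10_KO signals were 488.8, 671.6 and 334.4, and DKO signals were 576.1, 1028.3 and 555.6. The 2 arrays without Il10 were the highest of the 4 in each batch. The mean was 213 ± 87.3 (SD, n = 3) in WT and 219 ± 102 in Ebi3_KO, against 498 ± 169 in Il10_KO and 720.0 ± 267 in DKO. On the log2(signal + 20) scale, which understates changes of low signals, the difference was 1.17 ± 0.40 (SE) for Il10_KO against WT and 1.65 ± 0.40 for DKO against Ebi3_KO. It ranged from 1.07 to 1.29 over the 3 batches for the first pair and from 1.56 to 1.82 for the second, and these pairs share no array. DKO exceeded Il10_KO in all 3 batches, by 0.23, 0.60 and 0.70, although the groups overlapped.

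The second Il17re probe set, 1452109_at, designed from the same transcript sequence, also read higher without Il10 in every batch. WT signals were 253.0, 291.0 and 208.0 and Ebi3_KO signals 279.9, 337.1 and 282.6. Il10_KO signals were 525.4, 553.1 and 289.7 and DKO signals 554.6, 744.4 and 515.3. Both arrays without Il10 were again the highest in each batch, with batch 3 of Il10_KO only just so. The average Il10 difference was 0.86 ± 0.20 (SE), against 1.41 ± 0.28 for 1426566_s_at. After each batch's mean was removed the pair correlated at r = 0.95 over the 12 arrays; they share target sequence and arrays. The third probe set, 1439357_at, read 5.0 to 56.3, passed the signal filter through 4 arrays, and differed by -0.02 ± 0.38 (SE). It carried no order by genotype.

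Tmem176a, a channel-like membrane protein, had 3 probe sets and all read higher without Il10. For 1423909_at, WT signals were 576.5, 511.6 and 651.2, and Ebi3_KO signals were 753.8, 648.4 and 665.7. Il10_KO signals were 1431.2, 1059.1 and 1210.9, and DKO signals were 1127.9, 1258.3 and 1281.8. The 6 arrays without Il10 did not overlap with the other 6. Their smallest signal was 1059.1 and the largest of the others was 753.8. The average difference was 0.93 ± 0.14 (SE), with 1.06 ± 0.20 for Il10_KO against WT and 0.81 ± 0.20 for DKO against Ebi3_KO.

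The other Tmem176a probe sets differed in how cleanly they separated. For 1441811_x_at, whose suffix marks probes that may also match other sequences, signals were 468.0 to 810.3 on the arrays with Il10 and 841.3 to 1311.7 on those without, also with no overlap, and the average difference was 0.86 ± 0.17 (SE). For 1425603_at, signals were 528.1, 821.5 and 1070.2 in WT and 688.2, 1201.8 and 892.4 in Ebi3_KO. They were 1148.8, 1172.0 and 1642.4 in Il10_KO and 892.9, 1565.6 and 1933.5 in DKO. Here the groups overlapped, and in batch 2 the Ebi3_KO array exceeded the Il10_KO array. The average difference was 0.67 ± 0.24 (SE). In all 3 probe sets both genotype means without Il10 lay above both means with it.

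Tmem176b, the neighbour that starts on the opposite strand, followed Tmem176a. Its signals (1418004_a_at) were 1146.6, 1060.7 and 1997.0 in WT and 1649.6, 1639.3 and 1730.3 in Ebi3_KO. They were 2640.5, 1780.1 and 4081.0 in Il10_KO and 1887.6, 2152.1 and 3334.3 in DKO. The groups overlapped across batches, since every genotype read highest in batch 3, but within each batch both arrays without Il10 were the highest. The average difference was 0.74 ± 0.23 (SE). With batch means removed, Tmem176b correlated with the Tmem176a probe sets at r = 0.93 (1423909_at), 0.96 (1425603_at) and 0.90 (1441811_x_at) over 12 arrays. Il17re 1426566_s_at and Tmem176a 1423909_at correlated at r = 0.94. Both members of this last pair were on the list for following the Il10 genotype, which sets much of that value.

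**Figure D1:**
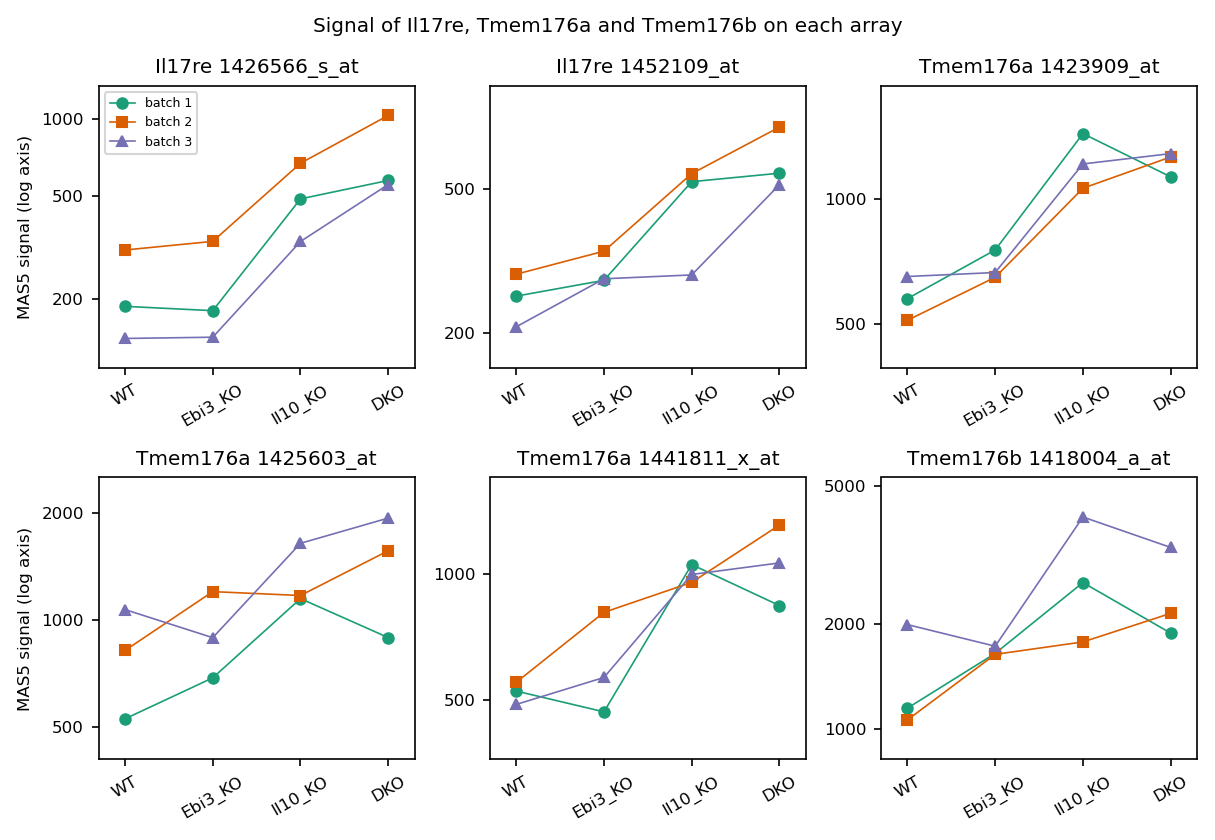
MAS5 signal (log axis) of Il17re, Tmem176a and Tmem176b probe sets on each of the 12 arrays, by genotype; points are single arrays and lines join the 4 arrays of 1 batch. Both arrays without Il10 are the highest of their batch in 5 of the 6 panels, as in 1.08% of all tested probe sets. In Tmem176a 1423909_at the lowest array without Il10, 1059.1, lies above 753.8, the highest array with Il10. Of all tested probe sets, 0.128% have all 6 arrays without Il10 above the other 6. Il17re and Tmem176a were selected on the Il10 difference, so nothing is read from these counts.

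Il17a, the signature cytokine, was low on most arrays and high on 2. Its signals (1421672_at) were 73.7, 170.3 and 49.7 in WT and 52.3, 247.9 and 41.4 in Ebi3_KO. They were 150.1, 97.4 and 125.9 in Il10_KO and 411.3, 1043.2 and 131.9 in DKO. The DKO arrays of batches 1 and 2 were the highest of all 12, whereas the DKO array of batch 3 lay inside the range of the other genotypes. The mean was 529 ± 467 (SD, n = 3) in DKO, and 97.9 ± 63.8 in WT, 114 ± 116 in Ebi3_KO and 124 ± 26.4 in Il10_KO. The log2 difference was 1.96 ± 0.69 (SE) for DKO against Ebi3_KO, positive in all 3 batches. It was 0.41 ± 0.69 for Il10_KO against WT, where batch 2 was negative (-0.70). The average of 1.18 became 0.84 without the DKO array of batch 2. Il17a lies on chromosome 1, as Il10 does, and Ccr6 on chromosome 17, as Ebi3 does. Il17re, Il17ra and both Tmem176 genes lie on chromosome 6 and Rora on 9.

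Ccr6, the receptor that guides type 17 cells to CCL20, was lower in Ebi3_KO than in WT in every batch and higher in DKO than in Il10_KO in every batch. Its signals (1450357_a_at) were 2263.7, 2547.2 and 1999.2 in WT and 1888.0, 2219.9 and 1617.0 in Ebi3_KO. They were 1970.3, 2352.4 and 2075.0 in Il10_KO and 2637.8, 3144.6 and 2585.8 in DKO. Every DKO array was above every array of the other genotypes. The share of all tested probe sets with this order, or with these opposite signs, was not counted, so nothing is read from either. The log2 difference of Ebi3_KO from WT was -0.26, -0.20 and -0.30 in batches 1, 2 and 3, and that of DKO from Il10_KO was 0.42, 0.42 and 0.31. The interaction, the difference between these differences, was 0.64 ± 0.27 (SE) and did not pass the test over all probe sets (limma, unadjusted p = 0.037, adjusted p = 1.0). With batch in the fit it was the same size with unadjusted p = 0.0035 and adjusted p = 1.0. For Il10_KO against WT the difference was -0.09 ± 0.19 and for DKO against Ebi3_KO 0.55 ± 0.19.

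Il17ra, the receptor chain common to several IL-17 cytokines, gave signals that overlapped between all genotypes. The brighter probe set, 1420905_at, averaged 3306 ± 822 (SD, n = 3) in WT and 3119 ± 804 in Ebi3_KO, beside 3353 ± 1219 in Il10_KO and 3040 ± 785 in DKO. Its average Il10 difference was -0.03 ± 0.23 (SE) in log2, and that of the dimmer 1420904_at (215.3 to 673.0) was -0.05 ± 0.28. Both probe sets were lowest in batch 2.

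Rora, the nuclear receptor gene, had 9 probe sets, of which 6 were at or above the 40th percentile on all 12 arrays. Its average Il10 differences on those 6 ran from -0.02 (1455165_at) to 0.34 ± 0.26 (SE, 1436325_at), so no common direction appeared. The seventh tested, 1441085_at, read 3.5 to 61.4 and differed by 0.54 ± 0.37. Within batches, 1436325_at was higher without Il10 in all 6 pairs, by 0.19 to 0.51, while 1455165_at and 1420583_a_at each had pairs of either sign. Rora signal by 1436325_at averaged 694 ± 219 (SD, n = 3) in WT and 876 ± 356 in Ebi3_KO, beside 847 ± 238 in Il10_KO and 1162 ± 483 in DKO. The genotypes overlapped.

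**Figure D2:**
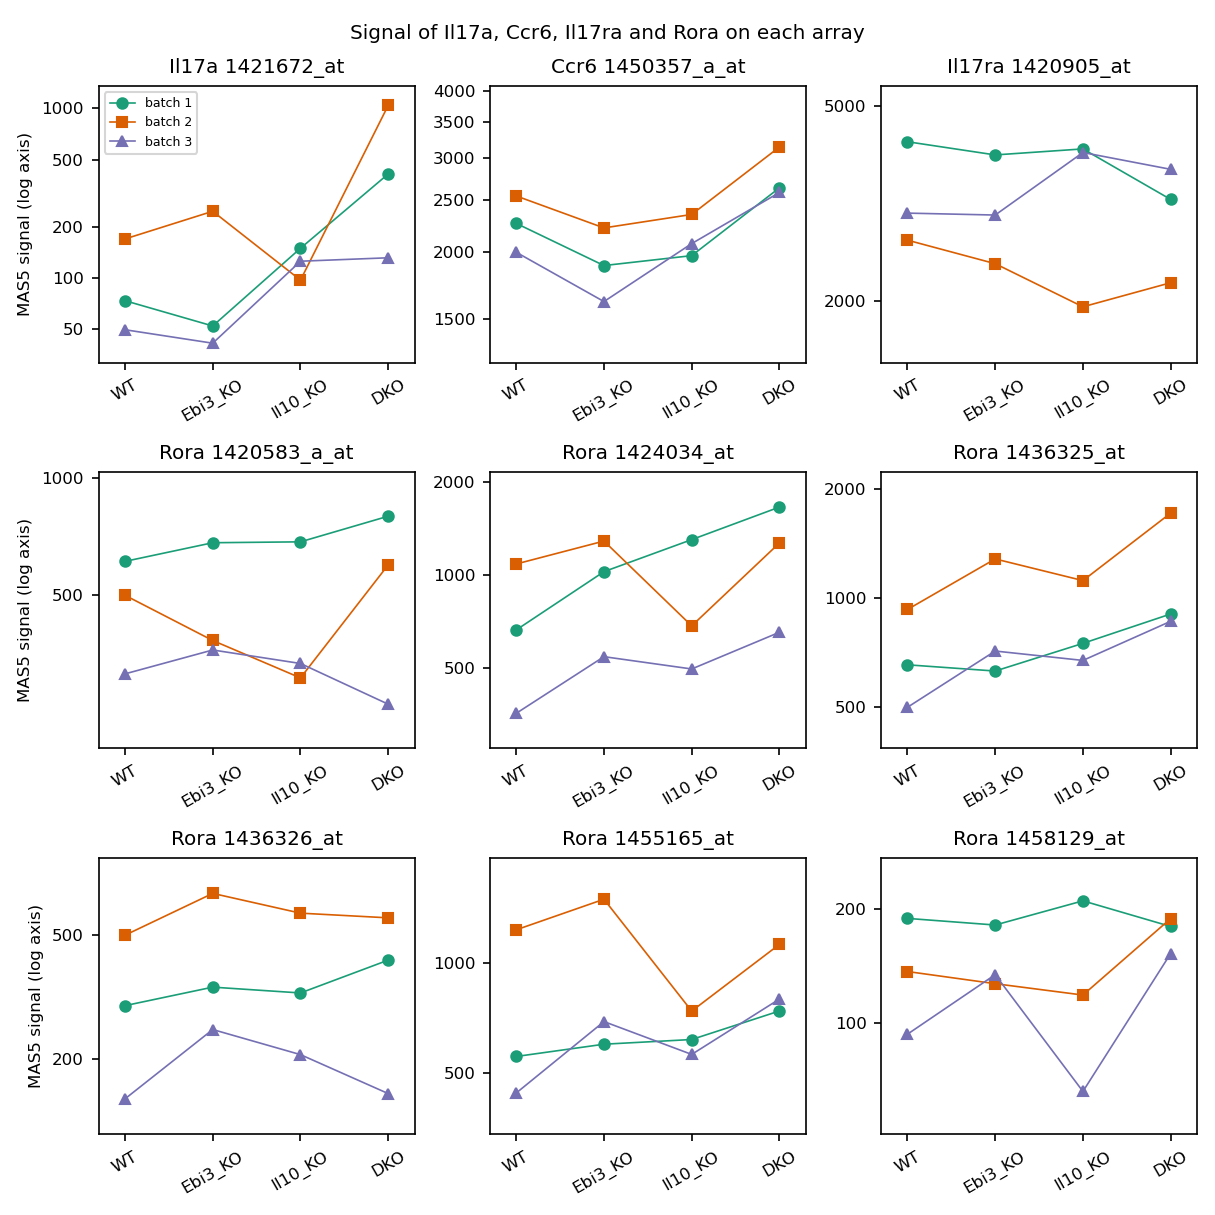
MAS5 signal (log axis) of Il17a, Ccr6, Il17ra and 6 Rora probe sets on each of the 12 arrays, by genotype; points are single arrays and lines join the 4 arrays of 1 batch. Il17a is highest in the DKO arrays of batches 1 and 2 (411.3 and 1043.2), all 3 DKO arrays are the highest for Ccr6, and Il17ra is lowest in batch 2 in every genotype.

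No member probe set passed the threshold (adjusted p below 0.05, limma with Benjamini-Hochberg adjustment over all 31235) for the average Il10 difference in the fit without batch, where 0.0128% of all probe sets did. The difference was above 0 for 13 of 18, against 53.7% of all tested. With batch as a block 4 passed, namely Il17re 1426566_s_at and 1452109_at and Tmem176a 1423909_at and 1441811_x_at, where 0.064% of all did. The rule that chose the members used this contrast, so nothing is read from these counts. The same holds for the 2 member probe sets, both of Tmem176a, whose 6 arrays without Il10 all lay above the other 6 (0.128% of all tested), and for the 5 that did so within each batch (1.08% of all tested).

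By the Ebi3 genotype, which the choice of members did not use, no member passed the test. This held for the 18 tested probe sets in Ebi3_KO against WT, DKO against Il10_KO, their average or the interaction, with or without batch in the fit. The background without batch was 0.0032% of all tested probe sets for each of the first 3 and 0% for the interaction, and with batch it was 0.0064% for the average. With an unadjusted p below 0.05, 0 of 18 passed for the average without batch (1.38% of all tested) and 5 with it (4.54%). Those 5 were probe sets of Rora, Il17a and Il17re. The average was above 0 for 14 of 18, against 48.1% of all tested. The 18 probe sets belong to 7 genes, so they are not independent and nothing is read from these shares. The SE depended on the fit. Without batch the average Ebi3 difference was 0.75 ± 0.49 (SE) for Il17a, 0.27 ± 0.28 for Il17re 1426566_s_at and 0.12 ± 0.14 for Tmem176a 1423909_at. With batch in the fit these SEs were 0.32, 0.13 and 0.11. For DKO against Il10_KO, without batch, the differences were 1.53 ± 0.69 for Il17a and 0.51 ± 0.40 for Il17re 1426566_s_at, and 0.07 ± 0.25 for Tmem176a 1441811_x_at.

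**Figure D3:**
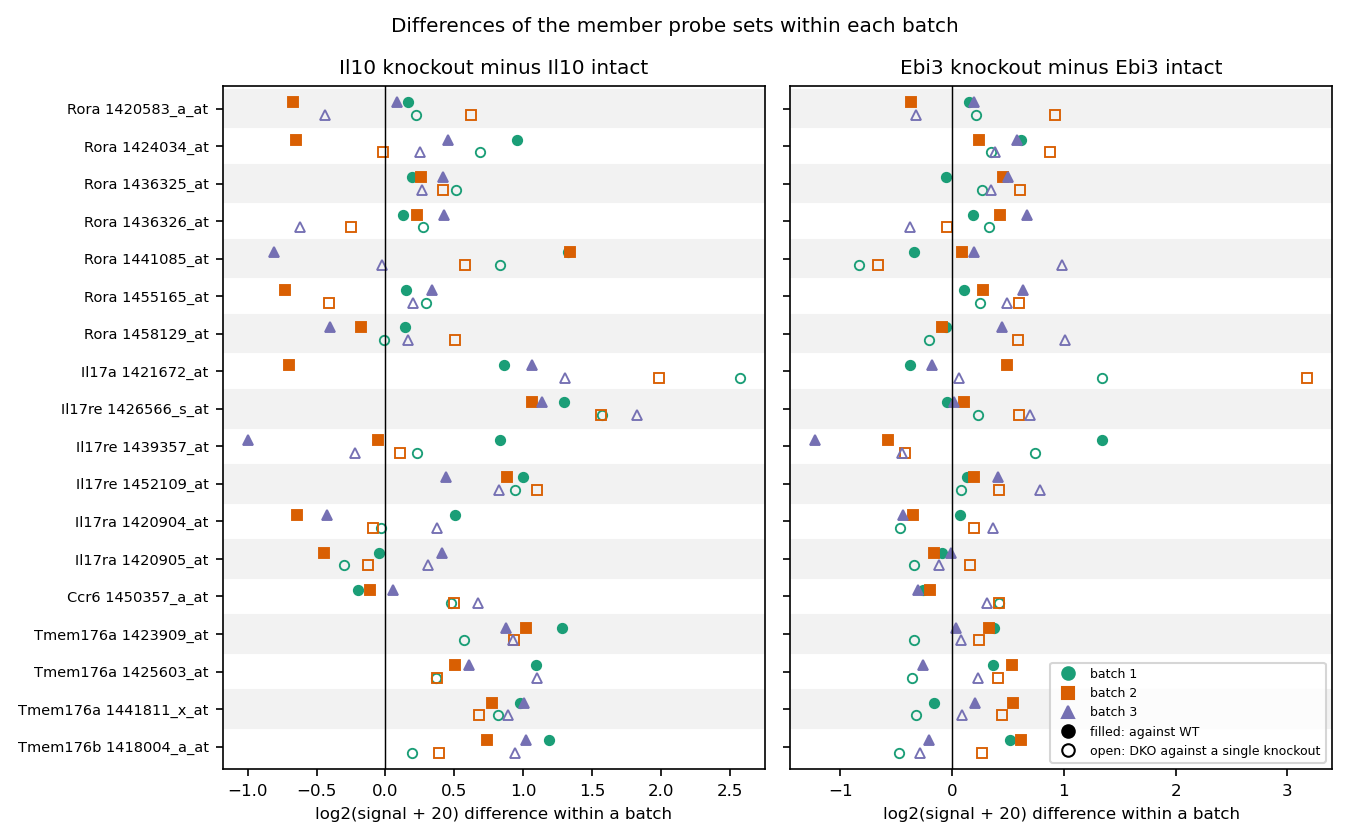
Difference in log2(signal + 20) within each batch for the 18 tested member probe sets, by the Il10 genotype (left) and by the Ebi3 genotype (right); filled symbols are a single knockout against WT, open symbols DKO against a single knockout. By Il10 all 6 symbols lie above 0 for 6 probe sets of Il17re, Tmem176a and Tmem176b and for Rora 1436325_at. The share of all tested probe sets with this pattern was not counted, and Il17re and Tmem176a were selected on the Il10 difference. Nothing is therefore read from that count. By Ebi3 the 3 filled Ccr6 symbols lie below 0 and the 3 open ones above it.

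Several members also differed between the batches. Of the 18 tested probe sets, 11 differed between batches (limma F test with genotype in the model, adjusted p below 0.05), against 41.8% of all tested, and several belong to the same gene. Rora was called by 5 probe sets that did not agree in direction. 1436326_at averaged 344 ± 50.5 (SD, n = 4), 583 ± 74.3 and 190 ± 46.9 in batches 1, 2 and 3 (adjusted p = 8.4e-05, limma), highest in batch 2. 1420583_a_at averaged 694 ± 77.5, 446 ± 129 and 318 ± 41.9 (adjusted p = 0.0025, limma), highest in batch 1. Probe sets of 1 gene therefore gave different orders of the same 12 RNA samples, and no single Rora level is given. Il17ra 1420905_at averaged 3881 ± 450, 2292 ± 305 and 3439 ± 512 (adjusted p = 0.0026, limma). Il17re 1426566_s_at (adjusted p = 0.00069) and Il17a (adjusted p = 0.019) were highest in batch 2 by the same limma test, and Tmem176b (adjusted p = 0.0091) in batch 3. Tmem176a 1423909_at, at 972 ± 383, 869 ± 348 and 952 ± 341, was not called (adjusted p = 0.55, limma).

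The rest of the pathway was read from 40 other genes in 5 lists, 37 of them with a probe set and 32 with a tested one (71 probe sets). None of the 71 passed for the average Il10 difference, with or without batch (limma, adjusted p below 0.05). With an unadjusted p below 0.05, 3 passed without batch and 15 with it, against 2.22% and 8.62% of all tested. The median difference was 0.12 against 0.022 over all tested probe sets, and 52 of 71 were above 0, as were 16780 of all 31235. By pair, 49 of 71 were above 0 for Il10_KO against WT (15589 of all 31235) and 39 of 71 for DKO against Ebi3_KO (17329). Among regulators, 27 of 31 probe sets were above 0 (median 0.16), with 22 and 19 of 31 in these pairs. For some regulators the WT array of batch 1 was the lowest of its batch. There Junb read 2305.2 against 13746.7 to 14243.5 on the other arrays, and Fosl2 1437247_at 142.6 against 1272.8 to 1439.1. Batf read 1854.4, inside the range of those arrays. Among receptors and ligands that feed the program, 6 of 15 were above 0 (median -0.06). By the Ebi3 genotype 44 of 71 were above 0 and 0 passed. The cytokine gene Il22 had no probe set annotated to it alone and was not analysed here.

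Socs3, which restrains signalling through STAT3, was the 1 gene of the lists with a call, in 1 contrast and with batch in the fit. The suffix of its probe set 1456212_x_at marks probes that may also match other sequences. That probe set read 3357.4, 3287.5 and 896.9 in WT and 8948.1, 5106.6 and 3416.3 in Il10_KO, with no overlap. It read 6142.7, 3863.8 and 1451.8 in Ebi3_KO and 6518.7, 4582.3 and 1862.5 in DKO, which overlapped. The difference of 1.32 for Il10_KO against WT was ± 0.64 (SE) without batch (adjusted p = 1.0, limma) and ± 0.19 with it (adjusted p = 0.037, where 0.0384% of all tested passed). Its other 2 probe sets differed by 0.79 and 0.95 in that contrast and did not pass (adjusted p = 0.086 and 0.35 with batch, limma). Stat3, the factor downstream of IL-6 and IL-23, differed by 0.04 to 0.19 on average over its 4 probe sets.

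The cytokine receptor genes of the pathway gave values that were not called. Il1r1, the IL-1 receptor, by its tested probe set 1448950_at, read 17.5 to 48.2 on arrays with Il10 and 36.1 to 159.1 on those without (0.91 ± 0.31 SE, unadjusted p = 0.013, adjusted p = 1.0, limma). On the arrays with Il10 alone, Il1r1 would not have passed the signal filter. Il6ra, the IL-6 receptor, differed by 0.08 ± 0.29 and -0.49 ± 0.33 by its 2 probe sets. Il17rc, the partner of Il17ra for IL-17A, read at most 35.0 on any array and was not tested. Csf2, a cytokine gene chosen for mention after its values were seen, read 8.8 to 44.8 with Il10 and 43.4 to 155.8 without (1.16 ± 0.32 SE, unadjusted p = 0.0034, adjusted p = 1.0, limma).

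**Figure D4:**
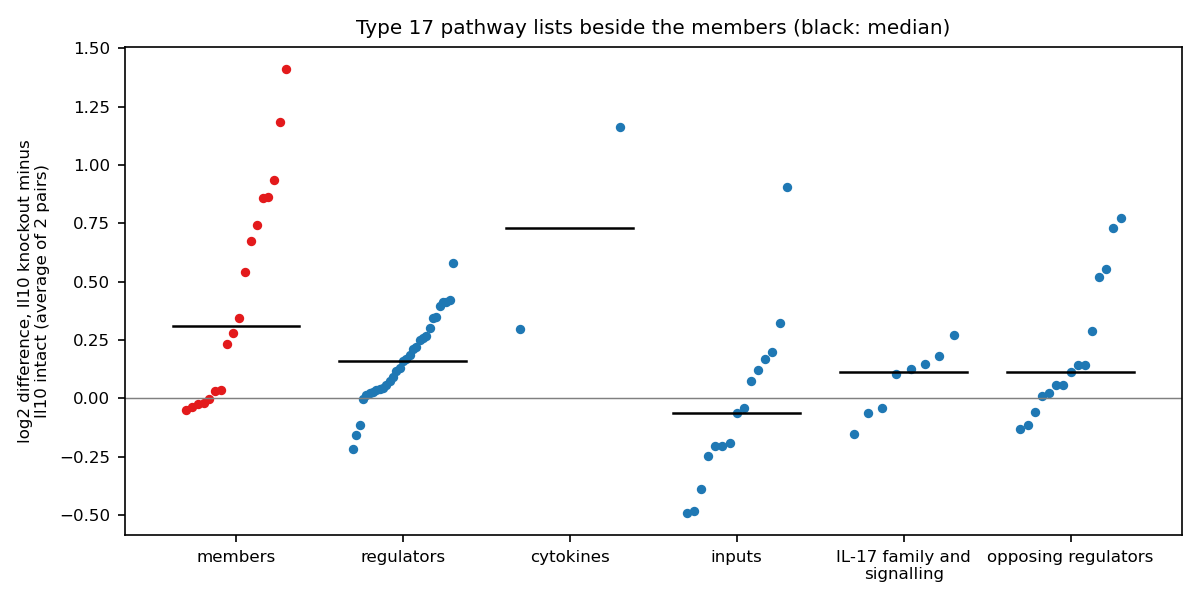
Average log2 difference by the Il10 genotype for each tested probe set of the members (red) and of 5 lists of other type 17 pathway genes (blue), sorted within each list; black lines are medians. Regulators lie mostly above 0 (27 of 31) and inputs mostly below it (9 of 15). Csf2 (1.16) and Il1r1 (0.91) are the highest points among the lists. On the arrays with Il10 alone, Il1r1 would not have passed the signal filter.

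Markers of other cells that can make IL-17 lay mostly above 0 in 1 of the 2 pairs that differ by Il10, DKO against Ebi3_KO. Of the markers listed for γδ T cells and innate lymphoid cells, Sox13, Blk, Cd163l1, Kit and Ncr1 had probe sets, and 6 of their 7 were above 0 for the average Il10 difference (median 0.48), with 0 called. For DKO against Ebi3_KO 6 of 7 were above 0 (median 0.66), and for Il10_KO against WT 3 of 7 were (median -0.34). Of all 31235 tested probe sets, 17329 and 15589 were above 0 in these pairs, and 16780 for the average. The summed signal of the γδ T and innate lymphoid markers was 732.7 to 990.6 in WT and 364.5 to 928.4 in Ebi3_KO. It was 758.8 to 1259.8 in Il10_KO and 969.6 to 1826.7 in DKO. Sox13 read 88.8, 80.2 and 120.5 in DKO and 8.7 to 64.8 on the other arrays. Ncr1 read 11.1 to 135.8 on single arrays. Kit and Blk did not differ between these 2 pairs in sign. For Il10_KO against WT and for DKO against Ebi3_KO, Kit 1452514_a_at differed by 0.65 ± 0.32 (SE) and 0.66 ± 0.32. Blk differed by 0.63 ± 0.62 and 0.34 ± 0.62, and Kit 1415900_a_at by -0.34 ± 0.52 and -0.12 ± 0.52. Cd163l1 is a scavenger receptor found on γδ T cells. For DKO against Ebi3_KO it differed by 2.29 ± 0.54 (SE, 1440808_x_at) and 1.89 ± 0.79 (1455527_at). For Il10_KO against WT these probe sets differed by -0.43 ± 0.54 and -0.48 ± 0.79. The suffix of 1440808_x_at marks probes that may also match other sequences. Cd163l1 1440808_x_at was highest of all in the DKO array of batch 1 (494.5), where Il17a read 411.3. In the DKO array of batch 2, where Il17a read 1043.2, that probe set read 286.9, below WT of the same batch (358.2). The γδ T cell receptor genes listed had no probe set of their own and were not analysed here. Neutrophil and myeloid markers were above 0 in 8 of 8 tested probe sets for the average (median 0.24) and for DKO against Ebi3_KO (median 0.52), but in 3 of 8 for Il10_KO against WT (median -0.05), their summed signal being 3925.4 to 36870.8 on arrays with Il10 and 3634.0 to 54926.6 on those without. For the average, CD8 T and NK cell markers were above 0 in 8 of 10 (median 0.21), with sums of 1642.4 to 5547.4 and 2050.3 to 6808.2. B cell markers were above 0 in 3 of 4 (median 0.04), with sums of 1144.8 to 7457.6 and 783.1 to 8968.4. Treg markers were above 0 in 9 of 11 (median 0.09), with sums of 37564.2 to 64371.7 and 38630.1 to 64132.7. For DKO against Ebi3_KO, 9 of 11 Treg, 7 of 10 CD8 T and NK and 2 of 4 B cell probe sets were above 0. For Il10_KO against WT 8 of 11, 8 of 10 and 3 of 4 were. Most markers above 0 for DKO against Ebi3_KO was thus not particular to cells that can make IL-17. The part of these cells in the member differences was not tested, and in sorted bulk RNA more cells of a type and more RNA per cell cannot be told apart.

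The named probe sets most like Il17re 1426566_s_at, by Pearson r over the 12 arrays after removing batch means, were Ramp1 (r = 0.97), Tmem37 (0.96), Ctse (0.96), Stom (0.95) and Ap1s3 (0.95). Ctse, an aspartic protease, read 1035.3 to 3159.3 with Il10 and 13939.1 to 20750.1 without. Ap1s3, a clathrin adaptor subunit, read 85.6 to 248.0 with Il10 and 1324.1 to 1841.6 without. Ramp1, a co-receptor for the peptide CGRP, read 2154.5 to 3801.8 with Il10 and 3839.1 to 5730.5 without. Of these 5 genes, all but Stom lie on chromosome 1, the chromosome of Il10, which holds 6.13% of the 25317 named probe sets tested. Those most like Tmem176a 1425603_at, its brightest probe set, were Pxdc1 (0.96), Wdfy1 (0.94), Cit (0.93), Anxa1 (0.92) and Ramp1 (0.92), with Wdfy1 and Ramp1 on chromosome 1. The genotype difference itself contributes to each of these correlations, and the arrays are the same.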

How the data were processed

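RNA of 12 mouse Treg samples was measured on Affymetrix arrays. Per the submitters' processing notes the tools were MAS5 and Partek 6.4. No scale is given in the sources used here. Each deposited value is a natural log, of the signal with 20 added, as the values themselves show: below a signal of 200, 100.0% were multiples of 0.1 within 0.005, and each array's 2% trimmed mean was 500.003 to 500.004. They were turned into log2(signal + 20) with no further normalization. Control probe sets (64) were left out, and tests were limited to the 31235 probe sets with 3 or more arrays no lower than their own 40th percentile. Gene names come from the platform annotation for the 34945 probe sets with 1 symbol. Of these, 34741 matched RefSeq GRCm38.p6 by gene identifier, and 932 with several symbols and 9160 with none stayed unnamed.

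The 4 genotypes were fitted together with limma 3.58.1 in R 4.3.3 (lmFit, eBayes with trend, 8 residual degrees of freedom), with Benjamini-Hochberg adjustment over all tested probe sets. Batch, which equals the replicate number, as a block was the alternative (6 residual degrees of freedom). An SE given without naming the fit is from the fit without batch. Labels name the batches. Deviations from genotype means correlated at 0.325 to 0.664 between arrays of the same number (18 pairs), so the numbers pair the arrays. Between arrays of different number and different genotype (36 pairs) they correlated at -0.531 to -0.0204. Removing genotype means ties this second range to the first, so it is no separate evidence. Alternatives covered the block, the added constant, the filter, quantile normalization, the variance prior and leaving out arrays or batches. The fits were tested on simulated data. Members, pathway lists and markers were chosen with earlier results of these data known. The genes named are all members, pathway probe sets past the threshold in either fit, Stat3, Il6ra, Il1r1, Il22, Il17rc and Socs3, and the 5 named probe sets most correlated with the brightest Il17re and Tmem176a probe sets. An item of the pathway lists is not reported here. Markers of the cell type lists are named too, and Csf2 falls outside this rule. Arrays give no counts, so their number limits the precision. The averages of the 2 Il10 pairs and of the 2 Ebi3 pairs weight both pairs equally.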

Additional observations from a re-analysis of the deposited data

Results flagged for a closer look

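For Ccr6 the Ebi3 difference was below 0 in every batch with Il10 and above 0 in every batch without it: the interaction was 0.64 log2 (limma, adjusted p = 1.0, unadjusted p = 0.037). With batch in the fit the unadjusted p was 0.0035 and the adjusted p stayed at 1.0. Ebi3_KO was below WT in 3 of 3 batches and DKO above Il10_KO in 3 of 3. Ccr6 lies on chromosome 17, as Ebi3 does, and the part of that position in the difference was not tested.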

How the results depend on the processing

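Of the counts, the members called by the Il10 genotype moved from 0 to 4 with the replicate block and to 3 with batch as a random block, which are values of a contrast the choice of members had used. Leaving out 1 array each gave 0 to 4, the higher counts all coming from fits with the block. Pathway probe sets called by the Il10 genotype ran from 0 to 1 when 1 array was left out, the 1 being Socs3 1456212_x_at with the block and without batch 2 of WT or of Il10_KO. Members and pathway probe sets called by the Ebi3 genotype stayed at 0 in every setting run, the block included, and members called between batches lay between 10 and 12. In the single pairs the block gave 2 member calls (Il10_KO against WT) and 1 (DKO against Ebi3_KO), against 0 without it, and 1 pathway call (Socs3, Il10_KO against WT). Among the contrasts reported it changed no other call. Over all settings the Il10 average ran from 1.15 to 1.57 for Il17re 1426566_s_at, 0.86 to 0.99 for Tmem176a 1423909_at, 0.59 to 0.89 for Tmem176b and 0.81 to 1.55 for Il17a. Ebi3 averages, none of which was called, crossed 0 in some settings for the probe sets that follow. Without batch 2, Tmem176a 1425603_at gave -0.0027, Tmem176a 1441811_x_at -0.045, Tmem176b -0.11 and Rora 1441085_at 0.0022. Without batch 1, Rora 1441085_at gave 0.15, and without batch 3, Il17re 1439357_at gave 0.27. With 1 array left out the ranges were -0.030 to 0.35 for Rora 1420583_a_at, -0.011 to 0.45 for Rora 1436326_at, -0.45 to 0.10 for Rora 1441085_at, -0.44 to 0.18 for Il17re 1439357_at, -0.28 to 0.11 for Il17ra 1420904_at, -0.27 to 0.018 for Il17ra 1420905_at and -0.074 to 0.22 for Tmem176b. The causes were not tested. With 3 arrays a group, signals near the background limit Rora 1441085_at and Il17re 1439357_at most.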
